A study of Sus scrofa with 18 samples.

Results

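Triglyceride lipases, the proteins that switch them on and off, and the patatin-like phospholipase (PNPLA) family were followed by symbol in backfat of Ningxiang pigs, a Chinese breed that lays down much fat. The 10 genes sought were PNPLA2, PNPLA3, PNPLA4, PNPLA6, PNPLA7, PNPLA8, LIPE, MGLL, ABHD5 and G0S2, and where several loci carried a symbol the one with the highest mean level was taken. Of these genes, 8 were found among the 27883 loci of the expression table and all 8 passed the filter on low values, while PNPLA4 and PNPLA7 had no row under their symbols and were not analysed here. The samples were shoulder backfat, taken where the layer was thickest, from 18 pigs kept in a common environment and described as castrated males, 3 at every 60 days of age from 60 to 360 days. The 3 pigs of a stage were full sibs and the 6 stage groups were half-sibs of each other, so age and litter cannot be told apart in any comparison between stages.

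Fat cells store triglyceride in a droplet and release it one fatty acid at a time. PNPLA2 (adipose triglyceride lipase) takes off the first fatty acid, LIPE (hormone-sensitive lipase) acts mainly on the diglyceride that remains, and MGLL (monoglyceride lipase) frees the last one together with glycerol. In human and mouse cells ABHD5 binds PNPLA2 and activates it, and G0S2 binds it and inhibits it. PNPLA3 is the closest relative of PNPLA2 and sits on lipid droplets, and in human and mouse cells its gene is a target of the lipogenic factor SREBP-1c. PNPLA6 is a lysophospholipase of the endoplasmic reticulum, and PNPLA8 is a phospholipase of mitochondria and peroxisomes.

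Levels are given as FPKM, fragment counts scaled by a length for each locus, which often differed from its genomic span, and by the depth of the library. Fold changes are log2 values of the later over the earlier stage. They come from 1 edgeR quasi-likelihood fit of the read counts of all 18 libraries. A locus counted as called where its adjusted p did not exceed 0.05 and its log2 fold change reached 1 in either direction. The libraries held 74077094 to 84236689 counts, and counts of PNPLA3 ran between 390 and 7094 per library and those of G0S2 between 52 and 307. The summed level of 9 adipocyte markers was 627 to 1004 FPKM in every library, and that of the keratinocyte markers was 0.91 to 2.42 FPKM. In 7 libraries the 3 Y-linked loci measured (EIF1AY, KDM5D and ZFY) summed to 0.17 to 11.7 CPM (counts scaled by library depth), against 114 to 244 in the other 11. These 7 were replicates 1 and 3 at 60 days, replicate 2 at 120 days, all 3 at 180 days and replicate 2 at 300 days, and their Y-linked levels go against the description of these pigs as males. Of them replicate 2 at 300 days had 11.7 CPM, and the others had 0.17 to 0.86 CPM. No library of 240 or 360 days was low, so age and Y-linked level cannot be told apart between 180 days and these ages. Hepatocyte markers summed to 895 FPKM in replicate 2 at 240 days and 561 FPKM in replicate 2 at 300 days, against 5.06 to 18.2 FPKM in the other 16 libraries. Skeletal muscle markers summed to 224 FPKM in replicate 2 at 120 days, 433 FPKM in replicate 1 at 180 days and 35.6 FPKM in replicate 1 at 240 days, against 0.83 to 16.5 FPKM in the other 15. In replicate 3 at 360 days the FPKM of all loci summed to 296894, against 159588 to 197079 in the other 17 libraries. The study's sequencing statistics give this library the highest GC content and the lowest shares of mapped and of uniquely mapped reads. The part of these library differences in the results below was not tested beyond the values given with them.

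**Figure D1:**
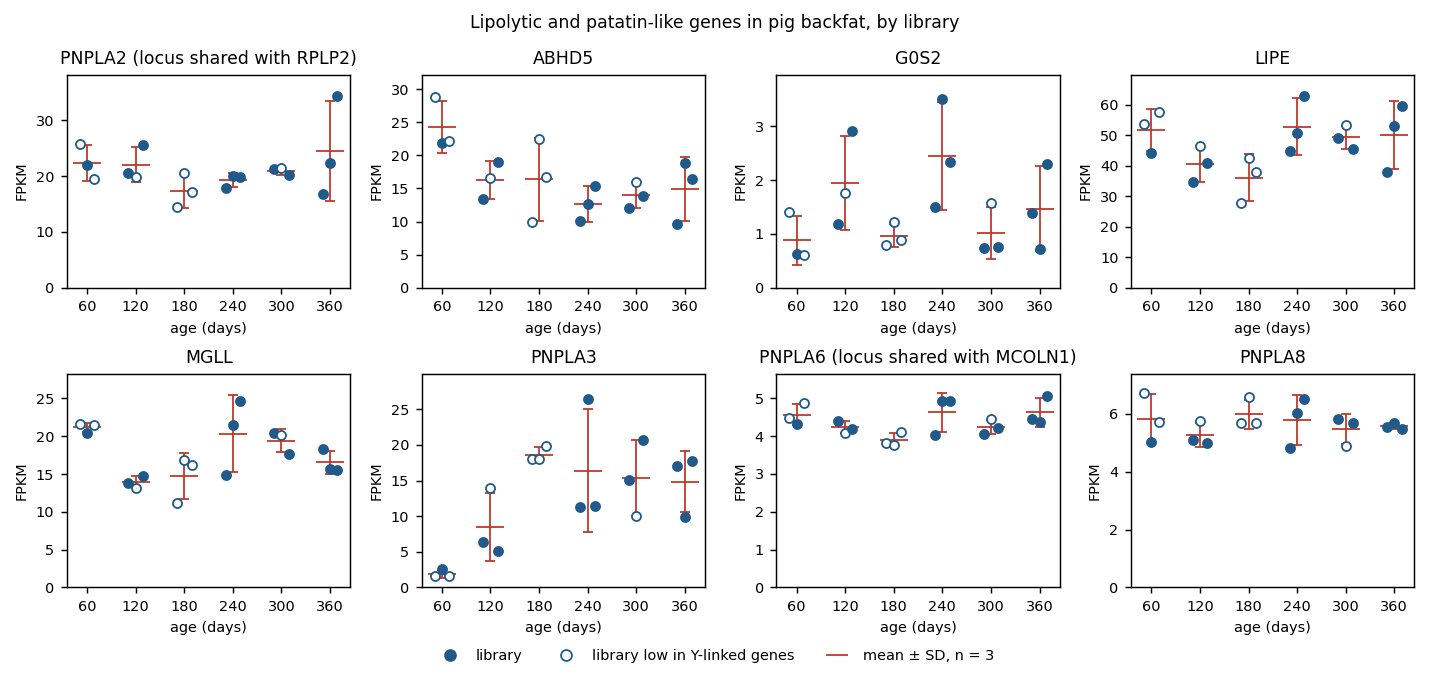
Level of each gene (FPKM, vertical axes from 0) by age in days, with 1 point per library, open where Y-linked genes were low, and red bars for the mean ± SD of 3 pigs. PNPLA3 lies between 1.55 and 2.53 FPKM at 60 days and between 5.15 and 26.4 FPKM in all later libraries, while for every other gene the libraries of 60 days overlap some of the later ones.

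PNPLA3 (chromosome 5 of Sscrofa11.1, 5075434 to 5092642, minus strand) was the only gene of the family called in any comparison. It had 1.55, 2.53 and 1.63 FPKM at 60 days, 6.40, 13.9 and 5.15 FPKM at 120 days and 18.03, 18.06 and 19.9 FPKM at 180 days. At the later ages it had 11.4, 26.4 and 11.4 FPKM at 240 days, 15.2, 10.1 and 20.7 FPKM at 300 days and 17.0, 9.88 and 17.7 FPKM at 360 days. All 15 libraries of 120 days and later lay above all 3 libraries of 60 days, as was so for 0.832% of all tested loci. Those of 180 days lay above those of 120 days, as for 9.55% of loci, while the stages of 180 days and later overlapped each other. The stage means were 1.91 ± 0.543, 8.49 ± 4.73, 18.7 ± 1.06, 16.4 ± 8.69, 15.3 ± 5.32 and 14.9 ± 4.33 FPKM from 60 to 360 days (SD, n = 3 pigs each). In the order of the means, 60 days stood clear of 120 days and no neighbouring pair above that was free of overlap. In bulk tissue such as this, fewer cells of a type and less RNA per cell cannot be told apart.

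The adjacent stages show where this rise lay. At 120 days PNPLA3 was 4.73-fold higher than at 60 days (log2 fold change 2.24, SE 0.43, edgeR adjusted p = 0.0411), in a comparison where 0.231% of all 19470 loci tested were called and 0.175% were called higher. The libraries of 120 days all lay above those of 60 days, which 7.95% of all tested loci also did. PNPLA3 ranked 10th by fold change among the 34 loci called higher. At 180 days its libraries again all lay above those of the stage before, but it was not called (log2 fold change 1.14, SE 0.41, edgeR adjusted p = 0.259). The 3 later steps gave log2 fold changes of -0.13, -0.12 and 0.04 (edgeR adjusted p = 0.952, 1 and 0.99). No gene of the family was called in the 4 comparisons between adjacent stages from 120 days on (background 0% of loci in edgeR). In these steps 2407, 1816, 735 and 1768 loci had an unadjusted p under 0.05, with 1, 4, 1 and 0 family members among them. DESeq2 called 251, 112, 19 and 66 loci there and no family member.

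Across the whole period PNPLA3 was 8.96-fold higher at 360 days than at 60 days (log2 fold change 3.16, SE 0.44, edgeR adjusted p = 0.000782, background 5.11% called, 3.07% higher). The 5 later stages together were 8.17-fold higher than 60 days (log2 fold change 3.03, SE 0.40, edgeR adjusted p = 0.000868, background 2.18% called, 0.95% higher). By fold change it ranked 31st of the 597 loci called higher at 360 days and 8th of the 185 called higher over all later stages. The test for any difference among the 6 stages called it too, with a span of 3.38 on the log2 scale between its highest and lowest stage (edgeR adjusted p = 0.00572, background 4.32% called). These comparisons share the 3 libraries of 60 days. In limma on log2(FPKM + 1), which understates changes from low levels, the log2 fold changes were 2.42 at 360 days and 2.35 over all later stages, both called.

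The libraries that stood apart bear on PNPLA3 as follows. Within 120 days the library low in Y-linked genes had 13.9 FPKM, against 6.40 and 5.15 FPKM in the others, within 60 days the low ones had 1.55 and 1.63 FPKM, against 2.53 FPKM, and within 300 days the low one had 10.1 FPKM, against 15.2 and 20.7 FPKM. At 180 days, the stage with the highest mean, every library was low, so no such comparison within the stage is possible. The library with 13.9 FPKM at 120 days was also the one with the most skeletal muscle marker RNA of its stage (224 FPKM, against 3.12 and 15.0 FPKM), and without the 3 libraries high in these markers the 120-day call was lost (log2 fold change 1.69, edgeR adjusted p = 0.0938). The fit without all 7 libraries low in Y-linked genes leaves no pig at 180 days and 1 at 60 days, assumed to vary like those of other stages. There the log2 fold change of PNPLA3 was 2.77 at 360 days against 60 days and 2.46 for all later stages against 60 days. Neither was called, and far fewer of all tested loci were called there than in the fit of all libraries. The 120-day call was also lost when any 1 of the 6 libraries of 60 and 120 days was left out (log2 fold change 1.68 to 2.50, edgeR adjusted p = 0.0753 to 0.155), and without replicate 1 or replicate 2 of 300 days (edgeR adjusted p = 0.052 and 0.051). The highest PNPLA3 level, 26.4 FPKM in replicate 2 at 240 days, came from the library with the most hepatocyte marker RNA, and the other library rich in it, replicate 2 at 300 days, had 10.1 FPKM. Without these 2 libraries the log2 fold change of all later stages against 60 days was 2.97 (edgeR adjusted p = 0.000756). Replicate 3 at 360 days, with the highest FPKM sum, had 17.7 FPKM of PNPLA3, against 17.0 and 9.88 FPKM at that age. Without it PNPLA3 was still called at 360 against 60 days, where 2.58% of all loci were called, against 5.11% with it.

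**Figure D2:**
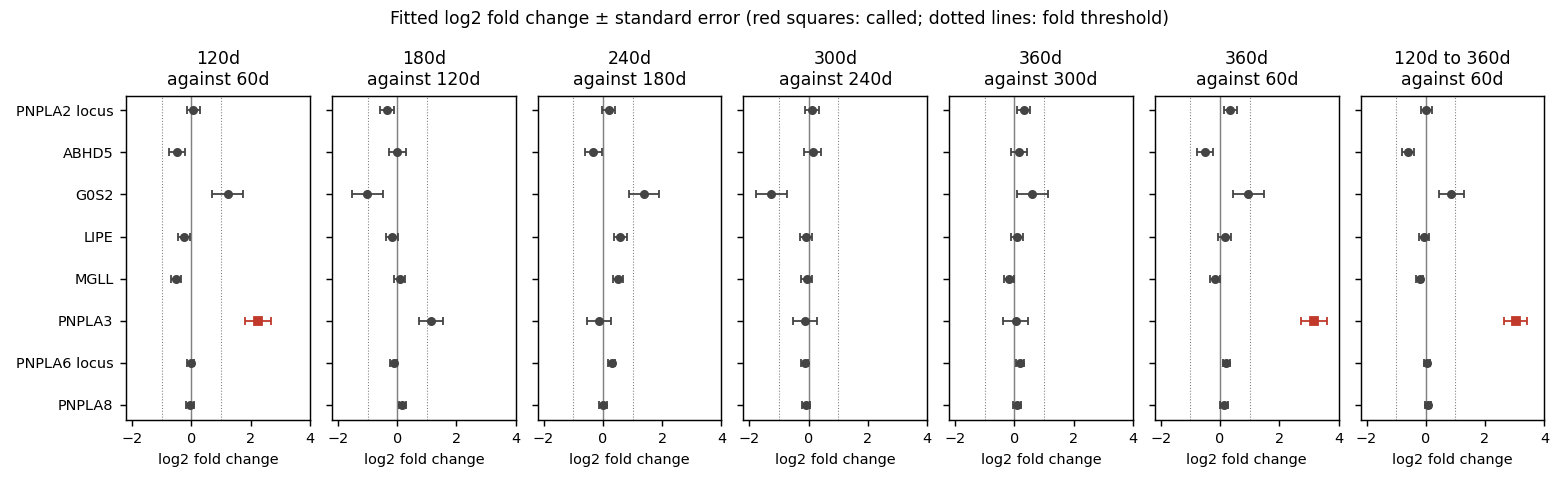
Log2 fold change ± standard error of each gene in 7 comparisons, the later stage over the earlier, with red squares for called genes and dotted lines at the fold threshold of 1. PNPLA3 stands at 2.24 where 120 days is set against 60 days, and at 3.16 and 3.03 in both wider comparisons with 60 days. Of the genes not called, G0S2 has the widest error bars.

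The lipases that take triglyceride apart in turn kept to narrower bands of levels. LIPE (chromosome 6, 49542875 to 49566941, plus strand) had 53.6, 44.2 and 57.5 FPKM at 60 days, 34.7, 46.4 and 40.9 FPKM at 120 days and 27.8, 42.6 and 38.0 FPKM at 180 days. At the later ages it had 44.9, 50.6 and 63.0 FPKM at 240 days, 49.2, 53.2 and 45.4 FPKM at 300 days and 38.0, 52.9 and 59.7 FPKM at 360 days. Its means were lowest at 120 and 180 days (40.7 ± 5.87 and 36.1 ± 7.59 FPKM, SD, n = 3) and between 49.3 and 52.8 FPKM at the other 4 ages. The 3 libraries of 240 days lay above the 3 of 180 days, but LIPE was not called there (log2 fold change 0.59, edgeR adjusted p = 0.375), and 5.76% of all tested loci were higher without overlap there. The lowest library, replicate 1 at 180 days with 27.8 FPKM, is the one with the most skeletal muscle marker RNA. LIPE in all later stages together differed from 60 days by a log2 fold change of -0.07, with a 95% interval of -0.41 to 0.27.

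MGLL (chromosome 13, 72480390 to 72573248, plus strand), too, had its lowest means at 120 and 180 days. It had 21.6, 20.5 and 21.5 FPKM at 60 days, 13.9, 13.2 and 14.8 FPKM at 120 days and 11.2, 16.9 and 16.2 FPKM at 180 days. At the later ages it had 14.8, 21.5 and 24.7 FPKM at 240 days, 20.4, 20.2 and 17.7 FPKM at 300 days and 18.3, 15.7 and 15.5 FPKM at 360 days. The libraries of 120 days all lay below those of 60 days, as 19.5% of all tested loci did on the FPKM scale, and the fold change was not called (log2 fold change -0.52, SE 0.18, edgeR adjusted p = 0.211). Those of 360 days lay below those of 60 days as well, as 25% of loci did, again without a call (log2 fold change -0.17, edgeR adjusted p = 0.555). At 240 days MGLL stood at a log2 fold change of 0.51 against 180 days (edgeR adjusted p = 0.37), where age and Y-linked level cannot be told apart. The ratio of LIPE to MGLL stayed between 2.07 and 3.84 in all 18 libraries, with stage means of 2.44 to 3.09. This ratio rests on the lengths behind FPKM, which counts and FPKM put at 21.2 kb for LIPE and 58.8 kb for MGLL.

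PNPLA2 could be measured only as part of a locus. Its row (chromosome 2 of Sscrofa11.1, 505185 to 524555, plus strand) also carries RPLP2, a ribosomal protein gene, CRACR2B and RF00419, and the reads of these genes cannot be told apart in it. That locus had 25.8, 21.9 and 19.5 FPKM at 60 days, 20.6, 19.9 and 25.6 FPKM at 120 days and 14.5, 20.5 and 17.1 FPKM at 180 days. At the later ages it had 17.8, 20.1 and 19.8 FPKM at 240 days, 21.2, 21.5 and 20.1 FPKM at 300 days and 16.8, 22.4 and 34.3 FPKM at 360 days. Of adjacent stages only 300 and 240 days did not overlap, with means of 20.9 ± 0.715 and 19.2 ± 1.25 FPKM (SD, n = 3), in a step where 4.19% of all tested loci were higher without overlap. No comparison called the locus (span over the stages 0.62 on the log2 scale, edgeR adjusted p at least 0.347 in the comparisons with 60 days). Its highest value, in replicate 3 at 360 days, came from the library in which the 10 most abundant loci took 19.0% of counts, against 9.37 to 14.3% in the others. The loci whose patterns were most like it over the 18 libraries were RPS15 and RPS21, ribosomal protein genes (Pearson r = 0.84 and 0.83 of log2 FPKM, a description over libraries that share depth and normalization), followed by SH2B1 (r = 0.81) and the merged loci of COLEC11 with RPS7 (r = 0.80) and of GABARAP with PHF23 (r = 0.79).

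The activator of PNPLA2 had its highest mean at 60 days and its lowest at 240 days, and the inhibitor the reverse. In the order of the means no stage of either gene stood clear of the next, and neither gene was called in any comparison. ABHD5 (chromosome 13, 27006217 to 27057712, plus strand) had 28.9, 21.9 and 22.1 FPKM at 60 days, 13.4, 16.5 and 19.0 FPKM at 120 days and 9.89, 22.5 and 16.7 FPKM at 180 days. At the later ages it had 10.01, 12.6 and 15.4 FPKM at 240 days, 12.1, 16.01 and 13.9 FPKM at 300 days and 9.55, 18.8 and 16.4 FPKM at 360 days. Its mean was highest at 60 days (24.3 ± 3.96 FPKM) and lowest at 240 days (12.7 ± 2.71 FPKM, SD, n = 3). All 3 libraries of 60 days exceeded every later library except replicate 2 at 180 days, and the later stages together stood at a log2 fold change of -0.59 against 60 days (SE 0.21, 95% interval -1.04 to -0.15), which was not called (unadjusted p = 0.0125, edgeR adjusted p = 0.0988). ABHD5 lay below 60 days without overlap at 120 days, as 19.5% of loci did, and at 360 days, as 25% did. A second, short row with the ABHD5 symbol lies inside the main one and held 1.60 to 4.47 FPKM. It had 2.35, 4.47 and 3.60 FPKM at 60 days, 2.61, 2.03 and 2.71 FPKM at 120 days and 2.42, 3.53 and 2.43 FPKM at 360 days. Unlike in the main row, its libraries of 60 days overlapped those of both these later ages.

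G0S2 (chromosome 9, 133286956 to 133288027, minus strand) had the lowest FPKM of the 8 genes in all 18 libraries. It had 1.41, 0.63 and 0.60 FPKM at 60 days, 1.19, 1.76 and 2.90 FPKM at 120 days and 0.80, 1.21 and 0.89 FPKM at 180 days. At the later ages it had 1.504, 3.51 and 2.33 FPKM at 240 days, 0.74, 1.58 and 0.75 FPKM at 300 days and 1.39, 0.72 and 2.29 FPKM at 360 days. The means went up and down between neighbouring ages, with the highest at 240 days (2.45 ± 1.01 FPKM) and the lowest at 60 days (0.88 ± 0.461 FPKM, SD, n = 3). The libraries of 240 days lay above those of 180 days, as 5.76% of all tested loci did. No step of G0S2 was called. Its log2 fold change was 1.22 for 120 over 60 days (edgeR adjusted p = 0.325), 1.39 for 240 over 180 days (edgeR adjusted p = 0.412) and -1.26 for 300 over 240 days (edgeR adjusted p = 1). Under the alternatives these values ran from 0.64 to 1.78, from 0.77 to 1.94 and from -1.74 to -0.75, with the smallest from limma on log2(FPKM + 1) and none called. G0S2 and PNPLA3 are the genes of the family whose span over the stages exceeded 1 on the log2 scale, at 1.60 for G0S2 (edgeR adjusted p = 0.176).

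**Figure D3:**
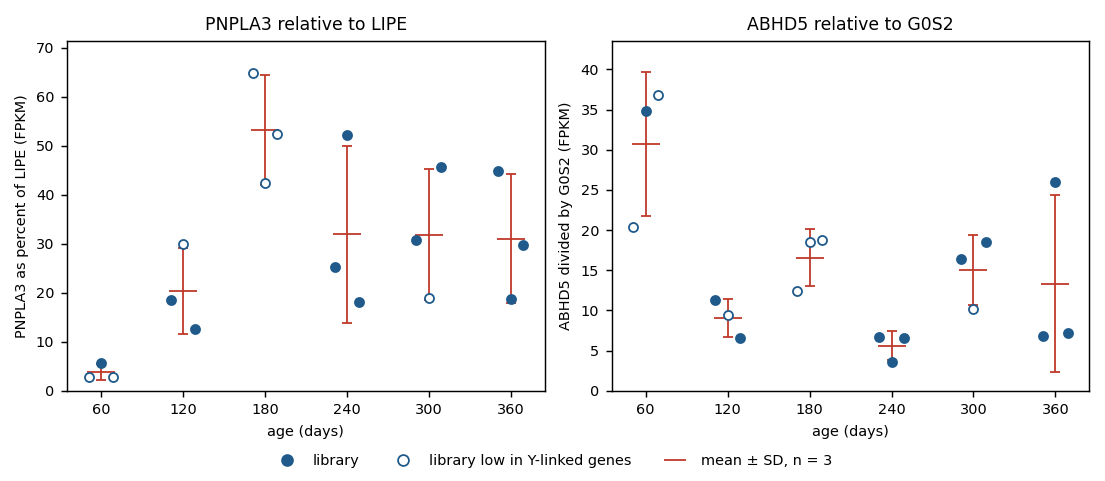
PNPLA3 as a percent of LIPE (left) and ABHD5 divided by G0S2 (right), both from FPKM, by age in days, with 1 point per library, open where Y-linked genes were low, and red bars for the mean ± SD of 3 pigs. The left ratio is 2.84 to 5.73% at 60 days and at least 12.6% later, and the right one is 20.4 to 36.8 at 60 days and 3.60 to 26.0 later.

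Set against each other, the levels show how the make-up of the group differed by age. PNPLA3 amounted to 3.82 ± 1.65, 20.3 ± 8.83, 53.2 ± 11.3, 31.9 ± 18.01, 31.8 ± 13.4 and 31.0 ± 13.1% of the LIPE level from 60 to 360 days (SD, n = 3 pigs each), and the lowest later library, with 12.6%, lay above the highest at 60 days, with 5.73%. Of the summed FPKM of the 8 loci, PNPLA3 made up 1.47 ± 0.549% at 60 days and 16.7 ± 2.996% at 180 days, while the sum itself stayed between 91.7 and 156.5 FPKM. The ratio of ABHD5 to G0S2 was 30.7 ± 8.94 at 60 days and 9.06 ± 2.38, 16.6 ± 3.60, 5.62 ± 1.75, 15.0 ± 4.37 and 13.3 ± 10.99 at the later ages (SD, n = 3), with 1 library of 360 days, at 26.0, inside the range of 60 days (20.4 to 36.8). Both ratios were formed after the single genes had been seen and were given no test. Levels of different genes rest on the lengths used for FPKM, and these differed widely, since the length implied by counts and FPKM was 21.2 kb for LIPE, 88.0% of the span of its locus, against 3.46 kb for PNPLA3.

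PNPLA6 and PNPLA8, the family members that act on phospholipids, had the smallest spans over the stages of the 8 genes. PNPLA6 (chromosome 2, 71574517 to 71613319, minus strand), whose row also carries MCOLN1, a lysosomal channel gene whose reads cannot be told apart from it, had 3.76 to 5.07 FPKM over the 18 libraries, with stage means of 3.89 ± 0.189 at 180 days to 4.63 ± 0.384 FPKM at 360 days (SD, n = 3). Its span over the stages was 0.36 on the log2 scale (edgeR adjusted p = 0.293), and all later stages differed from 60 days by a log2 fold change of 0.04, with a 95% interval of -0.16 to 0.25. PNPLA8 (chromosome 9, 108270400 to 108320579, minus strand) had 4.81 to 6.71 FPKM, a span of 0.18 on the log2 scale (edgeR adjusted p = 0.784), and a log2 fold change of 0.07 for all later stages against 60 days, with a 95% interval of -0.15 to 0.29. Every stage overlapped its neighbours in order of the mean for both genes.

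Over the family as a whole, 3 of 8 genes had a higher and 5 a lower fitted mean at 120 days than at 60 days (median log2 fold change -0.04, against -0.01 over all tested loci). At 360 days 6 had a higher and 2 a lower mean than at 60 days (median 0.18, against -0.01). Without PNPLA3 the log2 fold changes at 360 against 60 days ran between -0.51 for ABHD5 and 0.95 for G0S2, with edgeR adjusted p values of 0.248 to 0.675.

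The other genes of triglyceride breakdown and assembly were read in 5 lists, with the fitted means of both ages compared. At 360 against 60 days, the 13 tested genes of triglyceride assembly had 2 higher and 11 lower means, a median log2 fold change of -0.38 against -0.01 over all loci, and 2 called lower (2.04% of all loci were). ACSL1, which activates fatty acids by joining them to coenzyme A, had 22.4 ± 5.03 FPKM at 360 days, against 95.998 ± 6.20 FPKM at 60 days (SD, n = 3 each, log2 fold change -1.92, edgeR adjusted p = 0.000395). DGAT1, which adds the last fatty acid to make triglyceride, lay at the fold threshold (log2 fold change -1.001, edgeR adjusted p = 0.00205). It was -1.17 to -0.88 under the alternatives, and its call was lost in 9 of 11. DGAT2, the more abundant enzyme of this step, was at -0.12 (edgeR adjusted p = 0.803).

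Of 31 tested genes of the hormonal control of lipolysis, 15 had higher and 16 lower means at 360 than at 60 days, with 2 called higher and 3 lower (3.07% and 2.04% of all loci were). HCAR1, the lactate receptor through which lipolysis is restrained, had 2.35 ± 0.579 FPKM at 360 days, against 11.2 ± 2.01 FPKM at 60 days (SD, n = 3 each, log2 fold change -2.08, edgeR adjusted p = 0.00188). TSHR, the thyrotropin receptor, had 0.65 ± 0.143 FPKM at 360 days, against 2.11 ± 0.349 FPKM at 60 days (log2 fold change -1.51, edgeR adjusted p = 0.00443). The third was PRKAR2B, a regulatory subunit of protein kinase A on a merged row (log2 fold change -1.06, edgeR adjusted p = 0.0122). Those called higher were ADCY3, an adenylyl cyclase (1.0001, edgeR adjusted p = 0.0133), and the merged row of GNAI2, an inhibitory G protein subunit (1.06, edgeR adjusted p = 0.000638). In 18 fits without 1 library the calls of ADCY3, GNAI2 and PRKAR2B were lost in 3, 1 and 2. In 11 other alternatives ADCY3 lost its call in 5, GNAI2 in 3, PRKAR2B and TSHR in 2 each and HCAR1 in 0. HCAR1 and ACSL1 were also called lower over all later stages against 60 days (log2 fold changes -1.59 and -1.42, edgeR adjusted p = 0.00108 and 0.000281), as 1.23% of all loci were.

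Of 14 other lipases and hydrolases, 8 had higher and 6 lower means at 360 than at 60 days, and DDHD1, a phospholipase, was the 1 called (5.11% of all loci were), with 2.13 ± 0.788 FPKM at 360 days, against 5.74 ± 1.06 FPKM at 60 days (SD, n = 3 each, log2 fold change -1.26, edgeR adjusted p = 0.00351). LPL, the lipase that takes fatty acids from blood lipoproteins, was not called (log2 fold change 0.16, edgeR adjusted p = 0.629). DDHD2, the most abundant of the 14 after LPL, was not called by edgeR either. It had 18.6 ± 3.26 FPKM at 360 days, against 41.4 ± 1.64 FPKM at 60 days (SD, n = 3 each), without overlap, as 25% of loci were lower there. Of the 14 genes, 4 had an unadjusted p under 0.05 (28.3% of all loci), and limma called 2 at either pseudocount (5.87% and 1.91% of all loci). Of 16 droplet proteins, 10 had higher and 6 lower means, and PLIN4, a perilipin, was called higher, with 563 ± 198 FPKM at 360 days, against 312 ± 50.2 FPKM at 60 days (SD, n = 3 each, log2 fold change 1.04, edgeR adjusted p = 0.0292), a call that was lost in 5 of 18 fits without 1 library and in 5 of 11 other alternatives. Of 18 regulators and targets of SREBP, ChREBP and LXR, the lipogenic transcription factors, 12 had higher and 6 lower means and 0 were called by edgeR at 360 against 60 days, with an unadjusted p under 0.05 for 2 (28.3% of all loci) and 1 call by DESeq2 (7.06% of all loci). FASN was at a log2 fold change of 0.22 and SCD at 0.13 there (edgeR adjusted p = 0.627 and 0.838). At 120 against 60 days 7 genes of this list had higher and 11 lower means (median log2 fold change -0.23, against -0.01 over all loci). At 180 against 120 days 14 had higher and 4 lower means (median 0.56, against -0.01), with 0 called by edgeR (0% of all loci). At 120 against 60 days edgeR called 0 of the 92 genes of the 5 lists (0.231% of all loci), where 18 had an unadjusted p under 0.05 (13.3% of all loci) and DESeq2 called 3 (1.71% of all loci).

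The test for any difference among the 6 stages called 11 of these 92 genes, against 4.32% of all loci. Of the 11, 5 were not called between 360 and 60 days. ABHD6, a monoglyceride hydrolase, had its lowest mean at 120 days (2.06 ± 0.454 FPKM) and its highest at 240 days (5.68 ± 1.29 FPKM, SD, n = 3 each), a span of 1.501 on the log2 scale (edgeR adjusted p = 0.0135). ADCY5, an adenylyl cyclase, and ACACA, the acetyl-CoA carboxylase of fatty acid synthesis, also had their lowest means at 120 days, with spans of 1.29 and 1.36 (edgeR adjusted p = 0.0228 and 0.0413). LPIN1, a phosphatidate phosphatase, was highest at 60 days (27.2 ± 5.59 FPKM) and lowest at 240 days (10.96 ± 3.51 FPKM, SD, n = 3 each, span 1.19, edgeR adjusted p = 0.0479). MOGAT1, which makes diglyceride from monoglyceride, was highest at 180 days (2.05 ± 0.283 FPKM) and lowest at 360 days (0.89 ± 0.316 FPKM, SD, n = 3 each, span 1.11, edgeR adjusted p = 0.0361).

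The fit without the 7 libraries low in Y-linked genes rests on 1 pig at 60 days, whose spread is assumed to be that of the other stages. Most calls over all tested loci were lost in it, so a lost call is not particular to these genes. In it HCAR1 and ACSL1 were called at 360 against 60 days (log2 fold changes -1.75 and -2.01, edgeR adjusted p = 0.0277 and 0.0333). The other 7 called genes of these lists were not, at log2 fold changes of -1.45 for TSHR, -1.37 for DDHD1, -0.92 for DGAT1, -0.76 for PRKAR2B, 0.74 for ADCY3, 0.96 for PLIN4 and 0.99 for GNAI2 (edgeR adjusted p = 0.0815 to 0.381). Over all later stages neither HCAR1 nor ACSL1 was called there (log2 fold changes -1.31 and -1.60, edgeR adjusted p = 0.0549 for both). Of the 11 genes, HCAR1 and ADCY5 kept their call for any difference in that fit, with spans of 1.87 and 1.43 on the log2 scale.

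**Figure D4:**
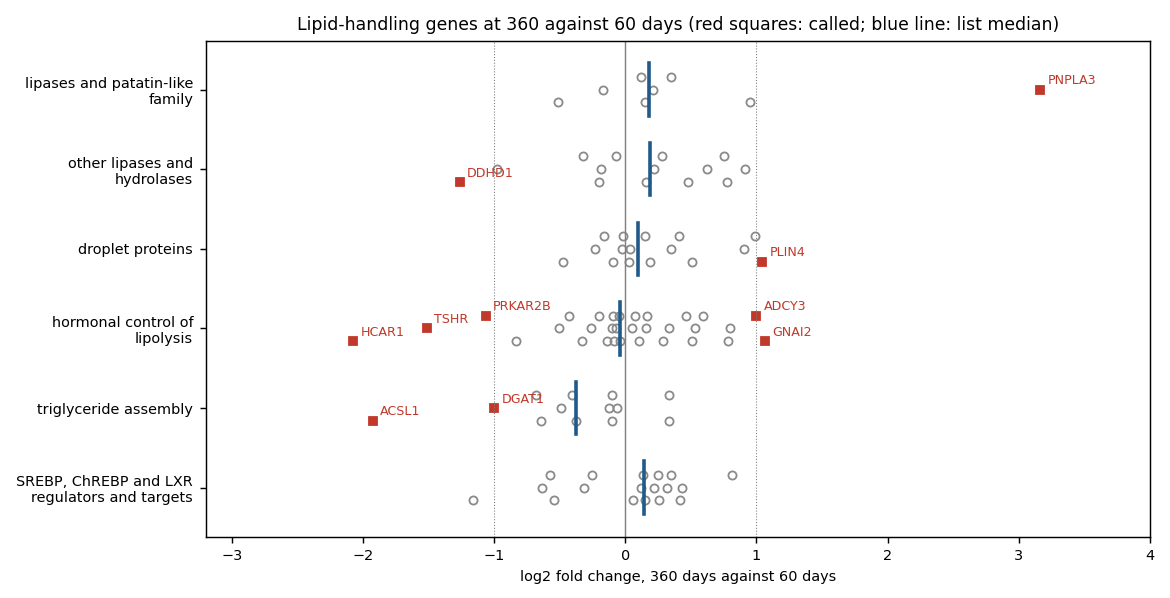
Log2 fold change at 360 against 60 days for every tested gene of the family and of 5 lists of related genes, with red squares and names for called genes, grey circles for the rest, blue lines for list medians and dotted lines at the fold threshold of 1. PNPLA3 at 3.16 lies alone on the right, and HCAR1 at -2.08 and ACSL1 at -1.92 are lowest among the called genes.

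Summed markers of other cell types also differed between these ages. At 360 against 60 days, 11 of 12 macrophage markers had higher means and 4 were called higher (3.07% of all loci were). Their summed levels were 75.2 to 108 FPKM at 360 days, against 45.4 to 71.4 FPKM at 60 days. The adipocyte markers summed to 629 to 779 FPKM at 360 days, against 783 to 881 FPKM at 60 days. Of the 9 adipocyte markers tested, though, 4 had higher and 5 lower fitted means, with 1 called higher and 0 lower (2.04% of all loci were lower). Their median log2 fold change was -0.0151, against -0.0146 over all loci. At 120 against 60 days the fibroblast and progenitor markers summed to 2307 to 3437 FPKM at 120 days, against 795 to 1609 FPKM at 60 days. Of these 10 markers, 8 had higher and 2 lower fitted means, with 1 called higher (0.175% of all loci were). COL1A1 and COL1A2 weigh most in this sum, with means of 617 and 479 FPKM over the 18 libraries, against 74.5 FPKM or less for the others. The part of such shifts in the values of PNPLA3, ACSL1 or HCAR1 was not tested.

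By correlation of log2(FPKM + 0.1) over the 18 libraries, the genes most like PNPLA3 were BHLHE40, a transcription factor of the circadian clock (Pearson r = 0.88), CLMP, a cell adhesion molecule (r = 0.86), DUSP3, a phosphatase (r = 0.85), PLXNB2, a semaphorin receptor (r = 0.85), and LIMCH1, an actin-binding protein (r = 0.84). The genes most like LIPE were RXRG, a retinoid receptor (r = 0.87), RHOBTB1 (r = 0.87), CALCOCO1 (r = 0.83), NPR3, the clearance receptor of natriuretic peptides (r = 0.83), and FAM120C (r = 0.82). These values describe libraries that share stage, litter and normalization, and for PNPLA3 the 3 libraries of 60 days lie apart from the other 15.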

How the data were processed

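Ribosomal RNA-depleted total RNA of 18 backfat samples was sequenced in pairs of 150 bases. As the labels and the study's methods state, the authors trimmed reads with Cutadapt, aligned them to Sscrofa11.1 (Ensembl 96) with Hisat2 and assembled loci with StringTie. The deposited table holds whole-number read counts and FPKM values per locus, the latter scaled by the authors by library depth and a length that, from counts and FPKM, was 11.7 to 105.8% of the locus span in the family. Loci can merge neighbouring genes (1443 of 27883 carry 2 or more names), and how counts were taken is not given in the sources used here. The strand of the reads was not checked.

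Of all loci, 19470 reached 0.5 FPKM in 3 or more libraries and were tested. Counts were scaled by TMM and fitted with 1 coefficient per stage in edgeR 4.0.16 (R 4.3.3), common biological coefficient of variation 0.340, with 12 residual degrees of freedom and Benjamini-Hochberg adjustment over all tested loci. p-values measure the spread between pigs within stages, pooled over the stages. Intervals are 95% and use the fit's degrees of freedom. Alternatives were no filter, median-of-ratios scaling, DESeq2 1.42.0, limma 3.58.1 on deposited FPKM as log2(FPKM + 0.1) or log2(FPKM + 1), a replicate block, a term for libraries low in Y-linked genes, only the stages compared, adjusted p alone, and each library left out. Fits without libraries low in Y-linked genes (under 0.1 of the median library) or above 10 times the median library in hepatocyte or skeletal muscle markers were added after seeing the data. The fitting was tested on simulated data. Genes named outside the family were drawn from those called in a list, up to 4 with the highest mean FPKM per list, and the 5 loci most correlated with PNPLA3, PNPLA2 and LIPE. The members and lists were chosen with earlier results of these data known.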

Additional observations from a re-analysis of the deposited data

How the results depend on the processing

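The call of PNPLA3 at 120 against 60 days was the least stable result. The number of family members called there was 1 in the edgeR fit and 0 with no filter on low values (log2 fold change of PNPLA3 2.23, adjusted p = 0.0529), with the Y-linked term (2.24, adjusted p = 0.08), with only the stages compared (2.25, adjusted p = 0.0542), without the libraries low in Y-linked genes (1.29, adjusted p = 0.879) and without those high in skeletal muscle markers (1.69, adjusted p = 0.0938), and it was 0 to 1 when single libraries were left out. DESeq2 gave an adjusted p of 1.93e-05 for it, and other alternatives that kept the call gave 0.0404 to 0.0499. With a replicate block the number called was also 0 (2.21, adjusted p = 0.0624). Same-numbered pigs showed no shared deviation on average (mean correlation 0.00934 over 45 pairs, against -0.00459 over 90 pairs of different number). Such values cannot show that the numbers carry no pairing. The block changed no other count of members called. The counts of all loci called at 120 against 60 days were 45 in the edgeR fit, 1 with no filter, 333 with DESeq2, 5 with the block, 1 with the Y-linked term, 142 with only the stages compared, 8 without the libraries high in hepatocyte markers and 4 without those low in Y-linked genes.

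At 360 against 60 days, for all later stages against 60 days and for any difference among stages, 1 member was called in every alternative but 1 and with every single library left out (1 to 1). The exception was the fit without the libraries low in Y-linked genes, which has 1 pig at 60 days. In that fit PNPLA3 was not called, and far fewer of all tested loci were called in these 3 comparisons. In the 4 other adjacent comparisons the number was 0 throughout.

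Some small differences changed sign. PNPLA3 at 240 against 180 days was 0.063 without the libraries high in skeletal muscle markers, and -0.70 to 0.083 with single libraries left out. At 300 against 240 days PNPLA3 was 0.10 without those low in Y-linked genes and 0.65 without those high in hepatocyte markers, with -0.38 to 0.44 for single libraries. At 360 against 300 days PNPLA3 was -0.029 and -0.028 in limma at pseudocounts of 0.1 and 1, -0.17 without the libraries low in Y-linked genes and -0.18 without those high in hepatocyte markers, with -0.18 to 0.30 for single libraries. For all later stages against 60 days, limma gave -0.12 (both pseudocounts) for PNPLA2, -0.079 and -0.066 for PNPLA6 and -0.048 and -0.042 for PNPLA8, the block gave -0.0070 for PNPLA2, and LIPE was 0.034 with the Y-linked term and 0.22 without the libraries low in Y-linked genes. With single libraries left out these ran between -0.069 and 0.12 for PNPLA2, -0.031 and 0.18 for PNPLA8 and -0.17 and 0.024 for LIPE. The causes of these changes were not tested.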
